A study of Mus musculus with 16 samples.

Results

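RNA levels were described in 7 mouse lung tumors labelled sgControl RPP, out of the 16 tumor libraries of the series and out of its 8 control tumors. The 7 are sgControl RPP tumors 2 to 8. Tumor 1, from mouse 232, was left out by rule because a single entry, Mir6236, made up 88.9% of its summed FPKM (fragments counted on a transcript, corrected for its length and for the depth of the library), and its median gene stood at 2.38 FPKM. In the other 7 tumors that entry held 5.76% to 12.7%, and the median gene stood at 11.03 to 12.03 FPKM. The table's header calls the numbers before the genotype mouse numbers, and the labels give the same numbers to the lung tumors. They are 191, 233, 235, 839, 221, 229 and 218 for tumors 2 to 8, so by the header each tumor is from a different mouse.

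The mice were H11-LSL-Cas9 animals (B6;129-Igs2tm1(CAG-cas9*)Mmw/J), which carry a Cas9 transgene that stays silent until Cre recombinase removes a stop cassette. Adenovirus was given into the trachea at 2 to 4 months of age, and lung tumors were taken at the study endpoint, per the labels. The labels do not spell out RPP. In this model the letters are known to stand for guide RNAs against Rb1, Trp53 and Rbl2, and the sgControl virus is the arm whose Kdm5a, a histone H3 lysine 4 demethylase gene, was left intact. The series title names CMV, a promoter active in many cell types, as the driver of Cre. Edits can differ between cells of a tumor, and a bulk library also holds RNA of the host cells within the piece of tissue.

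Small cell lung cancer is a neuroendocrine carcinoma. Its cells keep peptide hormones and amines in dense-core granules, which are built with the help of chromogranins and secretogranins and in which prohormone convertases cut peptide precursors. Transcription factors, NEUROD1 and POU2F3 among them, are used to sort these cancers into subtypes, and MYCL, MYCN or MYC, as well as NFIB in the mouse, are recurrently amplified in them.

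Levels are given below as relative levels, that is FPKM divided by the library's median over 13123 genes, which are those that reached 1 FPKM in 8 or more of all 16 libraries. The unit FPKM was inferred from the values and the submitters' processing notes. Such values are per transcript length, so relative levels can be set side by side between genes, apart from the short entries and near-identical copies described below. Spread is the SD over the 7 tumors of log2(relative level + 0.1), and it was computed for the 13790 genes with a mean of at least 1 FPKM in these tumors. The median gene had a spread of 0.38, and 912 genes, or 6.61%, had a spread of at least 1. There is 1 group of tumors here, so no test between groups was made and no p-value is given. In bulk tumors, fewer cells of a type and less RNA per cell cannot be told apart.

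Tumor 5 stood apart from the others. Across genes its log2 levels correlated with those of the other 6 tumors at r = 0.810 to 0.852, while the other 6 correlated among themselves at 0.875 to 0.941. Genes are not independent replicates, so these are descriptions. Without tumor 5, 599 genes (4.34%) had a spread of at least 1 and the median spread was 0.35. Spreads below are given with and without it where this matters.

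Insm1 and Foxa2 were present in every tumor, while Neurod1 and Pou2f3 were low or listed at 0. Insm1, a zinc-finger regulator of neuroendocrine differentiation, ranged over relative levels of 7.13, 8.82 and 15.3 as lowest, median and highest level, and Foxa2, a forkhead factor, over 6.42, 8.63 and 9.72. Foxa2, with a spread of 0.20, was thus more even across tumors than the median gene. Foxa1, Nkx2-1 (the thyroid and lung lineage factor) and Sox2 varied more. Foxa1 ranged over 2.87 in tumor 8, a median of 10.3 and 18.2 in tumor 4. Nkx2-1 ranged over 3.86, 8.40 and 13.6 and Sox2 over 1.47, 4.95 and 8.25, and both were also lowest in tumor 8 and highest in tumor 4. Neurod1 reached at most 0.477, in tumor 2, and was listed at 0 in tumors 5 and 7. Pou2f3, which marks tuft-like tumors, reached at most 0.0174. Yap1, a marker of non-neuroendocrine tumors, stood at 0.964 in tumor 5 and at 0.0781 to 0.313 in the other 6. Tumor 5 was also high in genes of lung and stromal cells (below), and which cells gave its Yap1 RNA was not tested.

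Chga, the gene of chromogranin A, was present in every tumor. It ranged from 11.4 in tumor 5 over a median of 24.1 to 47.8 in tumor 8, with a mean of 28.5 ± 13.6 (SD, n = 7). Tumors 4, 7 and 8 held 39.1 to 47.8, and the other 4 held 11.4 to 24.1. The ubiquitin hydrolase gene Uchl1 ranged over 26.1, 41.8 and 50.3, and Syp, the synaptophysin gene of secretory vesicles, over 4.18, 5.32 and 12.2. Of 19 measured genes of the neuroendocrine surface and synapse, 2 had a spread of at least 1, against 6.61% of all genes. They were Syt4 (spread 1.09, and 0.98 without tumor 5) and Stx1a (spread 1.18). A count of 2 is too small to set this list apart from all genes.

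The granule cargo varied more than the regulators. Of 18 genes for granule proteins and hormones, 8 had a spread of at least 1, with and without tumor 5, against 6.61% of all genes. These 8 were Calca, Chgb, Scg2, Cartpt, Pcsk1n, Pcsk2, Tph1 and Gal. The median spread of the 18 was 0.89. Of the 16 measured neuroendocrine transcription factor genes, 2 reached 1 with tumor 5 and 3 without it, and their median spread was 0.67.

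Calca encodes calcitonin and calcitonin gene-related peptide, the classic peptide of lung neuroendocrine cells. It stood at 914 in tumor 4, a median of 143 and 24.4 in tumor 7, with a spread of 1.62. Tumors 2, 3, 6 and 8 lay close together at 135 to 157, so that the range was set by tumor 4 above them and tumors 5 (50.1) and 7 below them. Scg2, the gene of secretogranin II, ran the other way in tumor 4: it stood at 0.186 there and at 3.26 to 22.99 in the other 6. Chgb, the gene of chromogranin B, was highest in tumor 4 at 34.2 and lowest in tumor 3 at 4.53.

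The processing enzymes of the granule also differed from tumor to tumor. Pcsk1, the gene of prohormone convertase 1, ranged over 13.5 in tumor 8, a median of 24.7 and 55.3 in tumor 4. Pcsk2, the gene of prohormone convertase 2, stood at 5.77 in tumor 8 and 3.80 in tumor 4, but at 0.0239 in tumor 3 and 0.0618 in tumor 7. Cpe, the carboxypeptidase E gene that acts after the convertases, ranged only over 9.86 to 24.7, with a spread of 0.42. Scg3, the gene of a granule sorting protein, and Resp18, a gene of endocrine secretory cells, were highest in tumor 8 as well, at 20.3 and 57.2, with medians of 9.75 and 21.3. Tumor 8 thus had the lowest Pcsk1 and the highest Pcsk2 level.

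Of the genes of amine synthesis and transport, Tph1, Th and Slc6a4 were each high in a single tumor, and Ddc was not. Ddc, the gene of aromatic amino acid decarboxylase, was abundant everywhere, at 35.7 to 77.0. Tph1, the tryptophan hydroxylase gene of the serotonin pathway, stood at 11.9 in tumor 8, 1.28 in tumor 2 and 0.0427 to 0.203 in the other 5. Th, the tyrosine hydroxylase gene of the dopamine pathway, stood at 4.46 in tumor 4 and at 0.0928 to 0.361 in the other 6, and Slc6a4, the serotonin transporter gene, at 3.52 in tumor 4 and at most 0.263 in the other 6. Enzyme and transporter of serotonin were thus high in different tumors.

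Other peptide genes were low or present in 1 or 2 tumors. Iapp, the gene of islet amyloid polypeptide, stood at 6.72 in tumor 8 and at 0.0884 to 0.688 in the other 6. Nppb, the natriuretic peptide B gene, stood at 4.12 in tumor 4, 1.11 in tumor 8 and at most 0.111 in the other 5. Grp, the gene of gastrin-releasing peptide, a known product of human small cell lung cancer, ranged over 0.0512 to 0.999. Of the 18 granule and hormone genes, 11 were highest in tumor 8 and 5 in tumor 4, as were 15.1% and 14.8% of all genes. Their median log2 level lay 0.87 above the other tumors in tumor 8 and 0.81 above them in tumor 4, and it stood at -0.56 in tumor 7 and -0.60 in tumor 5. Of all genes, 3.78% lay at least 1 above the other 6 tumors in tumor 8 and 5.36% in tumor 4.

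**Figure D1:**
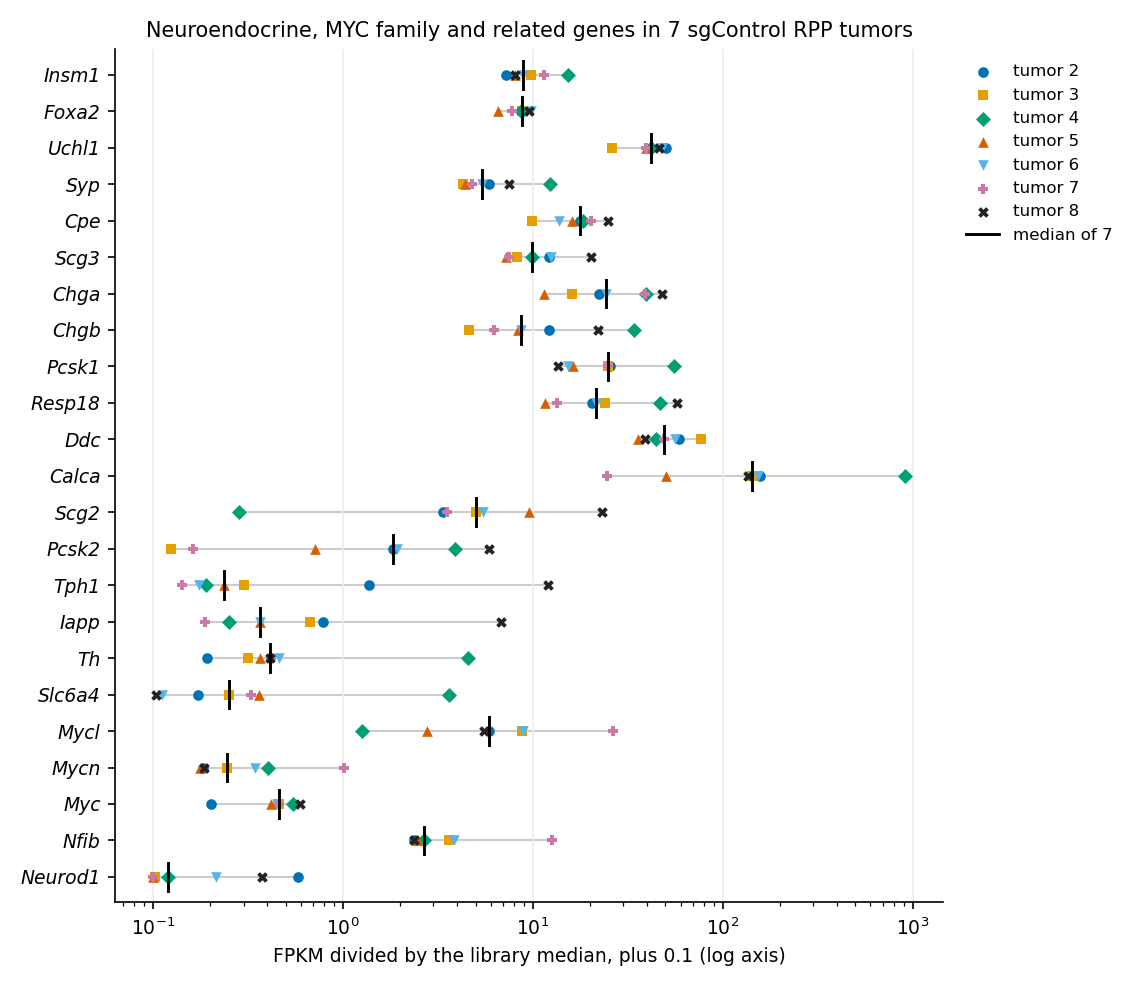
Relative level plus 0.1 (FPKM divided by the library median, log axis) of neuroendocrine, MYC family and related genes in the 7 sgControl RPP tumors. Each symbol is a tumor and the black bar is the median of 7. Foxa2 forms a tight group, while Calca, Scg2, Pcsk2 and Tph1 spread widely, with tumor 4 or tumor 8 at an end.

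The promoter windows of 4 of these granule genes are printed because Calca, Chgb and Scg2 diverged in tumor 4 and the windows of these 3 genes and of Chga share a short run of letters. Each window runs from 250 bases before to 50 bases after the transcript start, 5′ to 3′ on the gene's strand (RefSeq, build GRCm38.p6). Capitals mark the cAMP response element TGACGTCA, which reads the same on both strands, or its first part TGACG. The windows are Chga at chr12:102554691-102554990 (plus strand), Chgb at chr2:132781392-132781691 (plus strand), Scg2 at chr1:79439977-79440276 (minus strand) and Calca at chr7:114636308-114636607 (minus strand).
Chga: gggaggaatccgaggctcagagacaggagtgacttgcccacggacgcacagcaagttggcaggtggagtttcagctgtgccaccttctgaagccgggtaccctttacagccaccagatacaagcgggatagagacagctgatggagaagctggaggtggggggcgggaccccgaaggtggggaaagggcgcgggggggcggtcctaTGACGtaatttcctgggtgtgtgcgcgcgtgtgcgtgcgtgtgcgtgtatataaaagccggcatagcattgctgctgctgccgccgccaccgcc
Chgb: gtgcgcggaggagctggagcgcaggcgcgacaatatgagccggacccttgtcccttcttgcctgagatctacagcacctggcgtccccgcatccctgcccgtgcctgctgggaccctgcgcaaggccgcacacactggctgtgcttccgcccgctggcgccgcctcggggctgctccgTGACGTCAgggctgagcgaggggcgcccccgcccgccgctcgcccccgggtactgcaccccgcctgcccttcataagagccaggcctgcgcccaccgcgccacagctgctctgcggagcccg
Scg2: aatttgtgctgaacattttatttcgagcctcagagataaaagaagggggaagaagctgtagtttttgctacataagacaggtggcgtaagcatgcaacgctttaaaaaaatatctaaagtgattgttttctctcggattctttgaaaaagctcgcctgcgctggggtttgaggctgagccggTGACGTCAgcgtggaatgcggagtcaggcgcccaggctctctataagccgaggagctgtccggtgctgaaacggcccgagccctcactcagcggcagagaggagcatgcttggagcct
Calca: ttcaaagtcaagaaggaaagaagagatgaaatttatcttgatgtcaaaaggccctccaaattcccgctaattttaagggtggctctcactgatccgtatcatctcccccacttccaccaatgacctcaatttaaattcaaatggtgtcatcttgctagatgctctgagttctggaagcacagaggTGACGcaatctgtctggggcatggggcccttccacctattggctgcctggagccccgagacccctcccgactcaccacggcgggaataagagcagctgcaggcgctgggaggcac

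The element began 72 bases before the start in Chgb and 68 bases before it in Scg2. Its first part began 44 bases before the start in Chga and 65 bases before it in Calca. Of the 18 granule and hormone genes, 16 had a window in the table; 4 of these 16 (Cartpt, Chgb, Pcsk1 and Scg2) held the full element, which stands in 1.79% of all 32851 windows and in a window of 2.03% of all 27025 genes. TGACG on either strand, which every full element contains, stood in 11 of the 16 and in a window of 23.05% of all genes. A match of letters is a description and not a measured binding site. Chgb and Scg2, which share the full element at nearly the same distance, stood at opposite ends of their ranges in tumor 4. Whether the element bears on these levels was not tested.

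Ribosomal protein genes made up much of the top of the list. The 50 entries of highest median level held 17.9% to 24.2% of the summed FPKM of a tumor, with a median of 21.2%. A large part of this was 1 entry, Mir6236, which alone held 5.76% in tumor 6 to 12.7% in tumor 8. Of these 50, 26 were ribosomal protein genes. The 50 had a median spread of 0.38, as for all genes. A spread of at least 1 was found for 3 of the 50 (Calca, Rps27rt and Mir6973b), against 6.61% of all genes. This count does not set the 50 apart from all genes. The top 50 of all 7 tumors shared 19 entries, 110 entries reached the top 50 of at least 1 tumor, and 47 did so in a single tumor, 12 of them in tumor 5 and 11 in tumor 4.

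Mir6236 had the highest median of all entries, at relative levels of 2254 in tumor 6, a median of 3827 and 5843 in tumor 8. It is also the entry that filled the library left out by rule. The libraries were made from total RNA, and which RNA gave the fragments of this short entry was not tested. Its level is therefore not read as that of the 19-base mature microRNA. The mature sequence of Mir6236 is shown because this entry stood highest in every tumor except tumor 5. In tumor 5 Scgb1a1 stood at 3955 and Mir6236 at 3827. The mature sequence lies at chr9:110281353-110281371 on the plus strand (RefSeq, build GRCm38.p6), and capitals mark the seed, bases 2 to 8.
mmu-miR-6236: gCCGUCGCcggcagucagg

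After Mir6236 came Eef1a1, the gene of a translation elongation factor, at 170.4 in tumor 4, a median of 308 and 366 in tumor 2. Ptma, the prothymosin alpha gene, ranged over 173, 242 and 346, and Ppia, the cyclophilin A gene, over 159, 177 and 243. Stmn1, a microtubule regulator gene that is high in dividing and neuroendocrine cells, ranged over 92.8 in tumor 5, 176 and 267 in tumor 3. Calca was the eighth highest entry and the only hormone gene among the first 30.

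Gnas, which encodes the stimulatory G protein subunit that activates adenylyl cyclase, stood at 53.4 in tumor 4, a median of 116 and 157 in tumor 2. Nov, a matricellular CCN family gene, ranged over 48.4 in tumor 4, 105 and 139.8 in tumor 2. Both genes were thus lowest in tumor 4. B2m, the gene of the invariant chain of class I antigen, stood at 162 in tumor 8 and 156 in tumor 5, with a median of 82.5 and the lowest level, 39.2, in tumor 7.

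**Figure D2:**
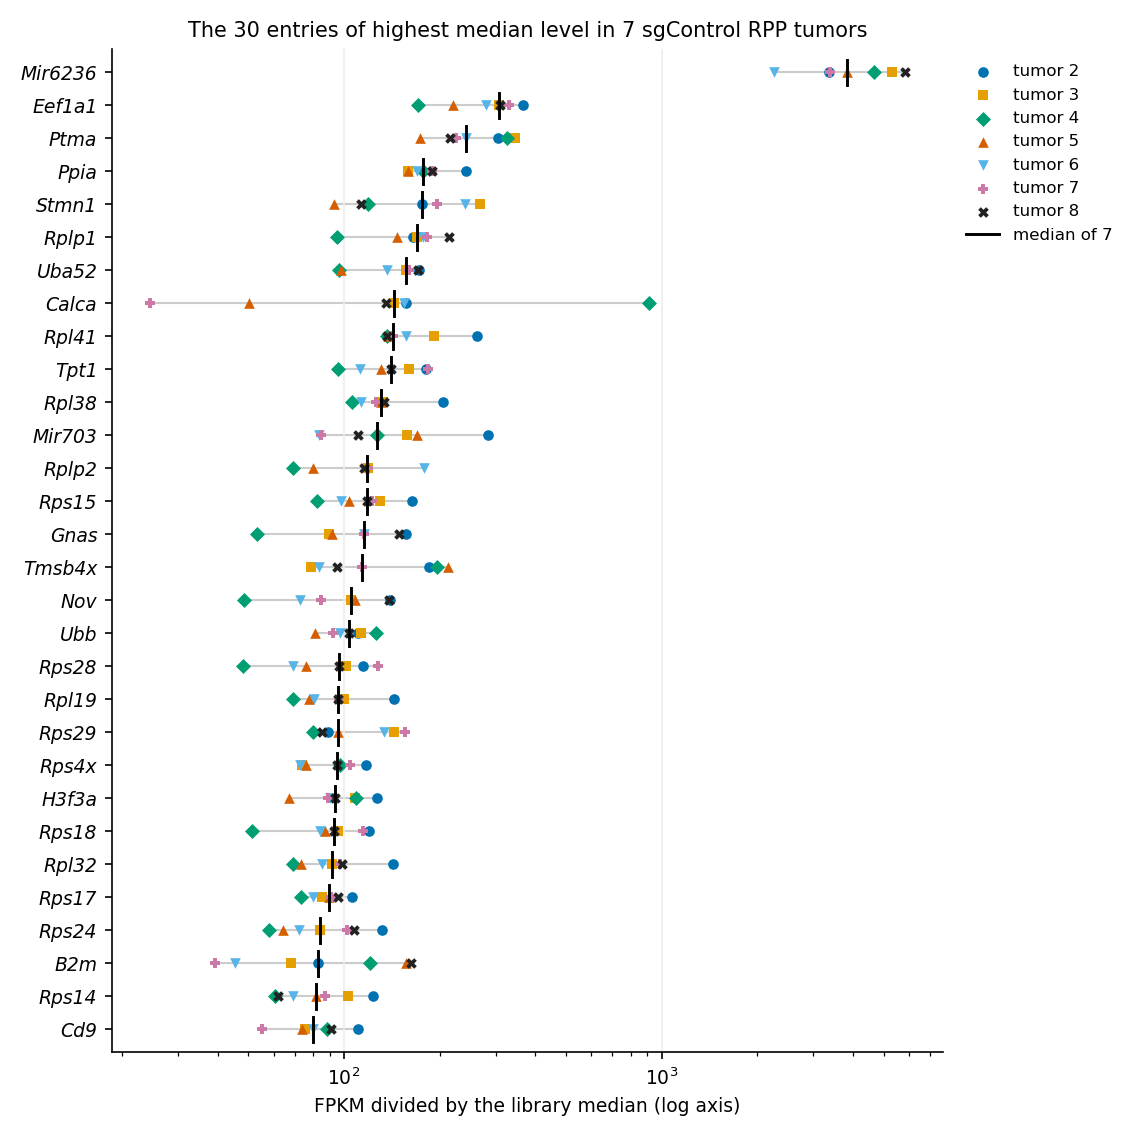
Relative level (FPKM divided by the library median, log axis) of the 30 entries of highest median level in the 7 sgControl RPP tumors. Each symbol is a tumor and the black bar is the median of 7. Mir6236 lies at 2254 or above in every tumor, and Calca spans 24.4 to 914.

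Several of the widest spreads belonged to near-identical gene copies or to short entries. Rps27 stood at 156 in tumor 2 and 0.499 in tumor 3, while Rps27rt stood at 0.873 in tumor 2 and 142 in tumor 3. Their transcripts were 100% identical over 341 aligned bases, and the sum of the pair ranged over 116 to 173 with a spread of 0.21, against 2.70 and 2.48 for each alone. Ndufs5, a gene of respiratory complex I, and BC002163 behaved alike: spreads of 3.13 and 2.63 alone, 0.62 for their sum, and 99.4% identity over 319 bases. Levels of single members of these pairs are therefore uncertain. Sums of other pairs examined stayed variable. For the alpha globin genes Hba-a1 and Hba-a2 (99.8% identity) the sum had a spread of 1.27, against 1.24 and 2.27 alone. For Dcpp1 and Dcpp2 (94.6% identity) it was 2.68, against 2.33 and 2.27 alone. For H2-Q7 and H2-Q8 it was 1.83, against 1.71 and 2.51 alone.

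Among 82 entries of small RNAs with a mean of at least 1 FPKM (44 microRNAs, 36 small nucleolar RNAs and 2 small nuclear RNAs), 78 had a spread of at least 1. Of the 82, 72 were listed at 0 in at least 1 tumor and 52 in at least 4. Their genes are 77 to 221 bases long. They took 21 of the 30 places of highest spread over all entries, so the genes named from here on are protein-coding unless stated. Of 13206 protein-coding genes, 792 (5.997%) had a spread of at least 1, and 489 (3.70%) without tumor 5. The share was 9.43% among genes of 1 to 5 FPKM and 3.60% among those of 20 to 100 FPKM.

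Tumor 5 was the highest tumor for 429 of the 912 variable entries (47.0%), and in 273 of these its level plus 0.1 was at least 4 times that of the next tumor. The other tumors were highest for 34 (tumor 6) to 126 (tumor 4). A gene could pass the mean of 1 FPKM through tumor 5 alone, and such a gene is highest there by construction. Without tumor 5, 13376 genes reached that mean, against 13790 with it, so the 429 in part reflect the filter. Scgb1a1, the secretoglobin of airway club cells and the most variable protein-coding gene, stood at 3955 in tumor 5 and at 1.87 to 342 in the other 6. Sftpc, the surfactant protein C gene of alveolar type 2 cells, stood at 345 in tumor 5, 74.6 in tumor 7 and 1.54 to 14.9 in the other 5. Ager, a gene of alveolar type 1 cells, stood at 28.8 in tumor 5, 11.4 in tumor 7 and 0.18 to 4.28 in the other 5.

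Further genes were present in tumor 5 and at or near 0 in the other 6, chosen for that pattern. Cfd, the adipsin gene, stood at 40.0 in tumor 5 and was listed at 0 in the other 6. Adipoq, the adiponectin gene, stood at 7.15 in tumor 5 against at most 0.0561 in the other 6, and Car3, a carbonic anhydrase gene of fat and muscle, at 33.1 in tumor 5 against at most 0.0058 in the other 6. Reg3g, an antimicrobial lectin gene of epithelia, stood at 47.6 in tumor 5 against at most 0.0331 in the other 6. Without tumor 5 the spread of these 4 genes was at most 0.25.

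The lists of other cell types moved with this. In tumor 5 the median log2 level lay above the other 6 tumors by 6.93 for 10 measured club and basal airway genes, 4.91 for 12 alveolar type 2 genes, 3.50 for 8 alveolar type 1 genes and 2.82 for 5 B and plasma cell genes. It lay above them by 1.98 for 7 class II antigen genes, 1.81 for 12 endothelial genes and 1.69 for 13 fibroblast genes. For the 20 cell cycle genes it was -0.75. Of all genes, 10.8% lay at least 1 above the other 6 in tumor 5.

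The summed relative level of the 11 club and basal airway genes was 5042 in tumor 5 and 3.54 to 363 in the other 6, and that of the 12 alveolar type 2 genes was 519 against 6.91 to 113. The part of these cells in the spread of other genes was not tested. In tumor 7 the alveolar type 2 list lay at 2.87 and the alveolar type 1 list at 1.43 above the other tumors, while its airway list lay at -0.07.

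Macrophage genes did not all vary alike. C1qa and C1qb, complement genes of tissue macrophages, ranged only over 3.85 to 6.51 and 4.97 to 6.93, with spreads of 0.27 and 0.19. Lyz2, the lysozyme gene that alveolar macrophages and alveolar type 2 cells also express, stood at 171 in tumor 5, 42.9 in tumor 7 and 8.11 to 21.01 in the other 5. Chil3, a chitinase-like gene of alveolar macrophages, stood at 5.76 in tumor 5 and at most 1.5 in the other 6.

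Some of the most variable genes had their extreme in a tumor other than tumor 5. Nnat, the imprinted neuronatin gene, stood at 0.673 in tumor 4 and at 18.8 to 98.2 in the other 6. Crabp1, a retinoic acid binding protein gene, and Bex1, a small brain-expressed X-linked gene, were lowest in tumor 3, at 0.225 and 0.266, against 1.72 to 18.6 and 3.13 to 13.4 in the other 6. Cxcl13, a B cell chemokine gene, stood at 31.6 in tumor 8 and 26.1 in tumor 5, at 8.19 and 6.77 in tumors 2 and 6, and at 0.322 to 0.700 in tumors 3, 4 and 7. Its spread was 2.64 with tumor 5 and 2.55 without it.

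Tumor 3 was marked by immediate early genes, the transcription factors that cells switch on within minutes of a stimulus. Fos stood at 14.2 in tumor 3 and 0.517 to 0.994 in the other 6. Jun stood at 20.6 in tumor 3 against 1.99 to 3.60 in the other 6, and Egr1 at 14.6 in tumor 3 against 0.507 to 2.71. Of 12 measured genes of this list, 11 were highest in tumor 3, as were 12.3% of all genes, and the list's median log2 level lay 2.14 above the other tumors, while 3.56% of all genes lay at least 1 above them in this tumor.

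Histone genes were high in the same tumor. Hist1h1c, a linker histone gene, stood at 14.3 in tumor 3 and 1.05 to 4.23 in the other 6. Hist1h2bc, a core histone gene, stood at 15.1 in tumor 3 against 2.196 to 7.53 in the other 6. Of 10 measured replication-dependent histone genes, 9 were highest in tumor 3, against 12.3% of all genes, with a list median of 1.68 above the other tumors. A run of chromosome 13 genes that was high in tumor 3 (below) was centred from Hist1h4n to Hist1h1c, with its peak at Hist1h4h. That run thus holds histone genes itself, so the list and the run are not separate observations. Genes of such a run are not independent. The cell cycle list lay 0.57 above the other tumors, with 12 of its 20 genes highest in tumor 3. None of the 20 had a spread of at least 1, against 6.61% of all genes. Top2a, the topoisomerase gene of dividing cells, ranged over 8.88, 11.4 and 21.5, and Mki67, the proliferation marker gene, over 5.29, 9.12 and 12.04.

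The HOXB cluster, whose genes set position along the body axis, differed strongly between tumors. Of 28 HOX genes in the table, 9 passed a mean of 1 FPKM, of which 8 were the Hoxb genes from Hoxb2 to Hoxb9. These 8 all had a spread of at least 1, against 6.61% of all genes. They belong to 1 cluster and are not independent of each other. Hoxb7 stood at 6.45 in tumor 8, 2.94 in tumor 5, 0.281 to 0.762 in tumors 2, 4 and 6, and 0.018 and 0.0203 in tumors 3 and 7. Hoxb2 stood at 1.60 to 3.91 in tumors 2, 4, 5, 6 and 8, and at 0.215 and 0.0455 in tumors 3 and 7. The list's median lay 1.98 above the other tumors in tumor 8, and at -2.48 and -2.47 in tumors 3 and 7.

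Class I antigen genes were low in tumors 6 and 7. H2-K1, a classical class I gene, stood at 17.1 and 19.6 there, and at 25.2 to 69.3 in the other 5. Psmb9, an immunoproteasome subunit gene, stood at 2.92 in tumor 6, 1.71 in tumor 7 and 4.73 to 7.43 in the other 5. The median of the 11 class I genes lay at -1.06 in tumor 6 and -1.39 in tumor 7 against the other tumors, and at 0.70 in tumor 8, where 7 of the 11 were highest, as were 15.1% of all genes. Of the 11, 1 had a spread of at least 1, against 6.61% of all genes. Class II genes did not follow: H2-Ab1 stood at 20.2 in tumor 5 and 4.13 to 5.72 in the other 6.

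Globin RNA of red blood cells was low in tumors 3, 6 and 7. Hbb-b1, a beta globin gene, stood at 7.52 to 14.5 in these 3 tumors and at 37.9 to 89.8 in the other 4, and the median of 6 erythroid genes lay at -1.61, -2.51 and -1.54 in tumors 3, 6 and 7. Xist, the RNA of the inactive X chromosome, stood at 1.36 to 5.61 in tumors 3, 4, 5, 6 and 8 and at 0.003 and 0.0054 in tumors 2 and 7. Eif2s3y, a Y-linked gene, stood at 2.46 and 2.00 in tumors 2 and 7 and at most at 0.006 in the other 5. The 7 tumors thus came from mice of both sexes. Among the tumors low in class I, HOX or globin RNA, only tumor 7 had the male pattern of low Xist and high Eif2s3y. Whether sex bears on these levels was not tested.

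**Figure D3:**
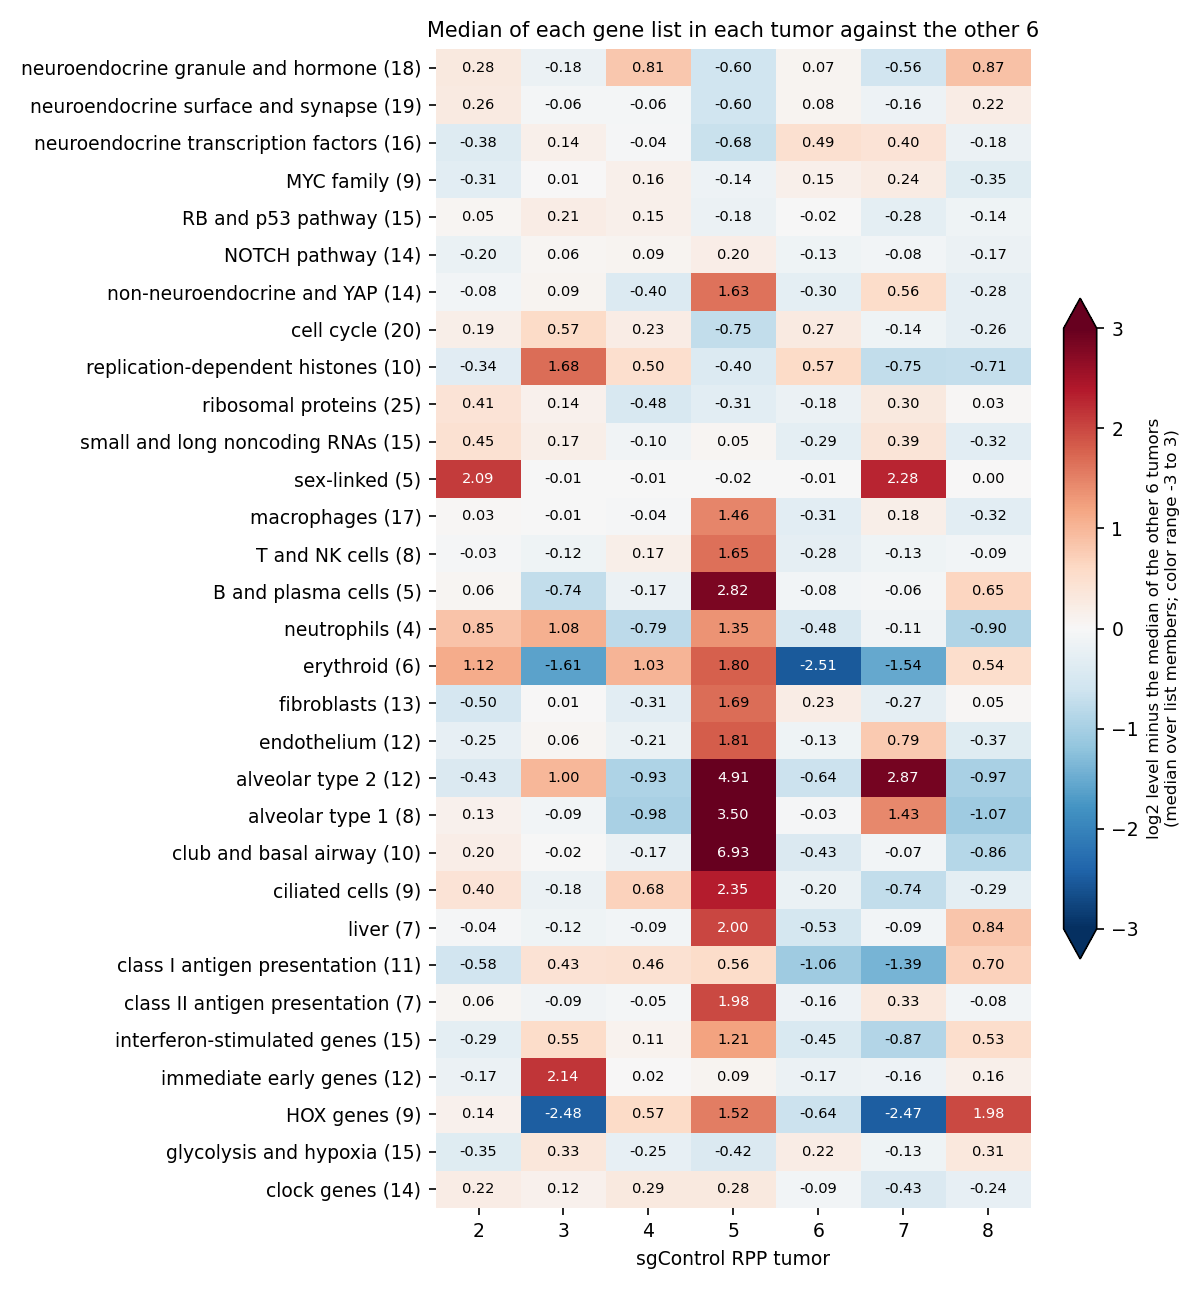
Median over each gene list (rows; number of measured genes in brackets) of the log2 level in each tumor minus the median of the other 6 tumors. Red is higher and blue lower, and colors end at -3 and 3. Tumor 5 is red in the rows of lung, stromal and immune cells, tumor 3 in immediate early genes and histones, and tumors 3 and 7 are blue in HOX genes.

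Among the MYC family, Mycl led in every tumor. It stood at 26.4 in tumor 7, 8.80 and 8.72 in tumors 6 and 3, 5.42 and 5.77 in tumors 8 and 2, 2.68 in tumor 5 and 1.15 in tumor 4, a spread of 1.39. Mycn ranged over 0.0779 to 0.916, also highest in tumor 7, and Myc over 0.102 to 0.496. Nfib, the gene of nuclear factor I B, stood at 12.5 in tumor 7 and 2.27 to 3.77 in the other 6. Tumor 7 therefore held the highest Mycl, Mycn and Nfib RNA, and at the same time the lowest Calca level and the lowest median of the class I list.

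Mycl and Nfib both lie on mouse chromosome 4, and their neighbours were read in gene order (gene table of GRCm38.p6). In tumor 7, 18 of the 20 neighbours of Mycl lay above the other tumors and 7 by at least 1 on the log2 scale, with a median of 0.71, against 2.22 for Mycl itself. In the same tumor 19 of the 20 neighbours of Nfib lay above them and 11 by at least 1, with a median of 1.06, against 2.30 for Nfib. Of all genes, 4.03% lay at least 1 above the other 6 in tumor 7. Psip1, a chromatin-associated factor gene among these neighbours, stood at 114 in tumor 7 and 13.3 to 26.9 in the other 6, and Mpdz, the gene next to Nfib, at 3.82 in tumor 7 against 0.0323 to 0.744 in the other 6.

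In tumor 6, whose Mycl was 0.64 above the other tumors, 19 of the 20 neighbours of Mycl also lay above them, with a median of 0.73 and 7 of them by at least 1, against 1.97% of all genes in this tumor, whereas the neighbours of Nfib had a median of 0.16. In tumor 3, whose Mycl was 0.63 above the other tumors, 16 of the 20 neighbours of Mycl lay above them, with a median of 0.39. Of these 20, 3 lay at least 1 above, against 3.56% of all genes in this tumor. Tumor 4 had the lowest Mycl, at -2.52. There the neighbours of Mycl had a median of -0.27, and 5 of the 20 lay above the other tumors. In tumor 2, where 2.74% of all genes lay at least 1 above the others, 1 of the 20 did so, namely Ndufs5, whose level is uncertain because of its copy. Without Ndufs5, 0 of 19 neighbours did so in tumor 2, 2 of 19 in tumor 3, 6 of 19 in tumor 6 and 7 of 19 in tumor 7.

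Runs of neighbouring genes were counted with medians over 21 genes in order, in 13320 such windows. Windows with a median of at least 1 above the other tumors numbered 136 in tumor 3 (1.02%), 113 of them on chromosome 4. The other 23 in tumor 3 formed a run on chromosome 13, centred from Hist1h4n to Hist1h1c, and so overlap with the histone result above. Such windows numbered 148 in tumor 4 (1.11%), 91 of them on X and 57 on chromosome 2. They numbered 27 in tumor 6 (0.203%) and 24 in tumor 7 (0.18%), all on chromosome 4, 40 in tumor 5 (0.3%), 1 in tumor 2 (0.00751%) and 0 in tumor 8. The highest window in tumor 7 was centred on Ttc39b, at 1.63, in a run of 20 windows centred from Ptprd to Slc24a2, a stretch that includes Nfib. In tumor 3 the highest was centred on Kif1b, at 1.54, in a run of 37 windows centred from Mfn2 to H6pd near the end of the chromosome. Beyond that run the sign turned, and the last window lay at -0.67 in tumor 3.

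Clstn1, a calsyntenin gene in the tumor 3 run, stood at 20.03 in tumor 3 and 2.93 to 4.76 in the other 6, and Kif1b, a kinesin motor gene, at 4.13 in tumor 3 against 1.25 to 2.97 in the other 6. In tumor 7, 7 windows from Fbxo2 to Masp2 in the same region of chromosome 4 lay at or below -1. The same stretch was therefore among the highest in tumor 3 and among the lowest in tumor 7. Chromosome 2 gave the counterpart in tumor 4: 57 windows centred from Acss1 to Zfp341 lay at or above 1, with a peak of 1.51, and 43 further along lay at or below -1. Nnat, which was low in tumor 4, also lies on chromosome 2, but its place relative to these stretches is not given here. DNA was not analysed here, so RNA levels of neighbours are given with no statement on copy number.

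**Figure D4:**
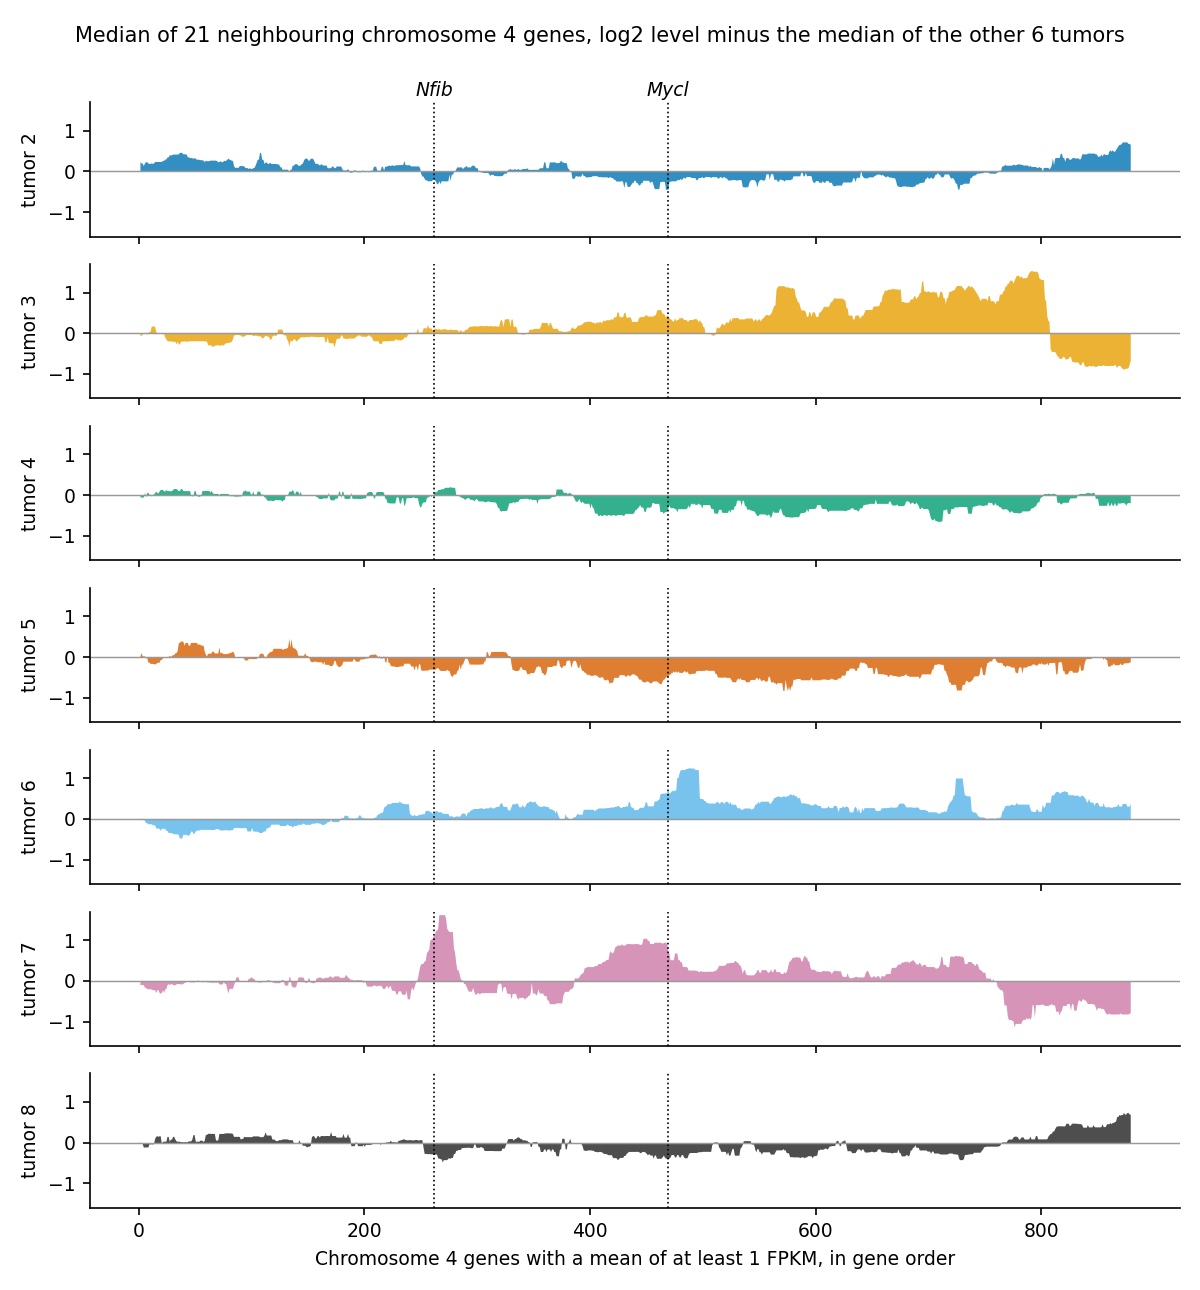
Median over 21 neighbouring genes of the log2 level in each tumor minus the median of the other 6 tumors, along 879 windows of chromosome 4 in gene order (horizontal axis: position in that order). Dotted lines mark Nfib and Mycl. Tumor 7 has a narrow peak at Nfib and a broader one before Mycl, tumor 6 a peak just after Mycl, and tumor 3 a broad rise that ends abruptly.

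Whole chromosomes differed as well. Of 445 measured X-linked genes, 92.8% lay above the other tumors in tumor 4, with a median of 0.87 on the log2 scale, while the X medians of the other 6 tumors lay between -0.16 and 0.06. Tumor 4 also had the highest Xist level, 5.61. The 472 genes of chromosome 12 had medians of -0.46, -0.33 and -0.57 in tumors 2, 5 and 8, and of 0.22 to 0.32 in tumors 3, 4, 6 and 7. Chga lies on chromosome 12 and was nevertheless highest in tumor 8. The remaining chromosomes had medians between -0.37 and 0.31.

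**Figure D5:**
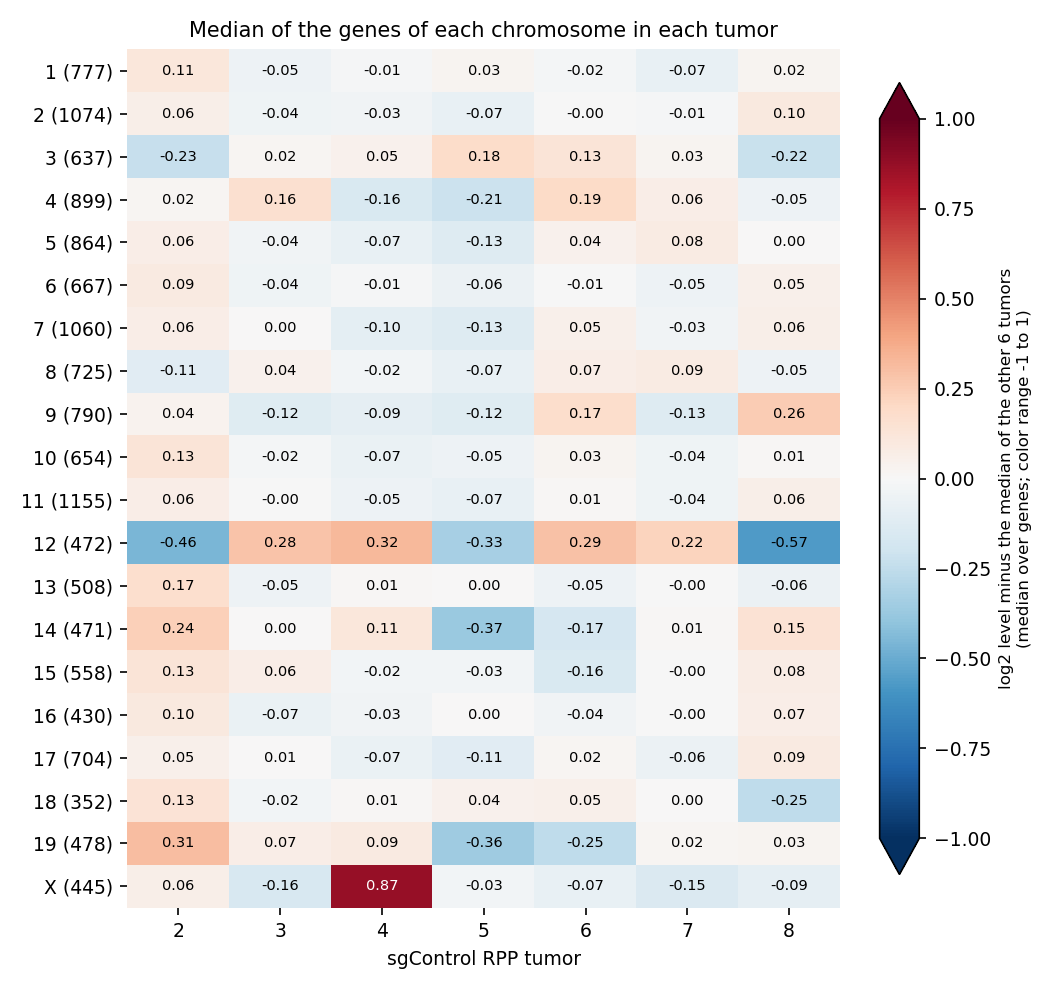
Median over the measured genes of each chromosome (rows; number of genes in brackets) of the log2 level in each tumor minus the median of the other 6 tumors; colors end at -1 and 1. X stands out in tumor 4 (0.87), and chromosome 12 is lower in tumors 2, 5 and 8 than in tumors 3, 4, 6 and 7.

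RNA of the genes targeted in this model was listed above 0 in all 7 tumors. Small edits made by Cas9 need not change an RNA level, so these values do not check the edits. Rb1, the retinoblastoma gene, ranged over 0.539 in tumor 7, 0.844 and 1.66 in tumor 2, and Rbl2, the p130 gene, over 0.54, 0.896 and 1.14. Trp53, the p53 gene, stood at 4.54 in tumor 7 and 3.13 in tumor 6, and at 0.571 to 1.203 in the other 5. Mdm2, the gene of the ligase that degrades p53, ranged only over 2.09 to 2.56, with a spread of 0.11, and so did not follow Trp53. Kdm5a, left intact in these tumors, ranged over 0.481 to 0.730.

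Cdkn2a, the gene of the p16 and p19ARF inhibitors, stood at 22.0 in tumor 3, a median of 11.9 and 5.35 in tumor 5, and Ccnd1, the cyclin D1 gene, at 3.30 in tumor 5 and 0.141 to 0.517 in the other 6. The 15 genes of the RB and p53 list had a median spread of 0.50. Of these, 2 had a spread of at least 1 (Trp53 and Ccnd1), and 1 of them without tumor 5, against 6.61% and 4.34% of all genes. No gene of the cell cycle (20), glycolysis and hypoxia (15), clock (14) and NOTCH (14) lists reached a spread of 1. At a share of 6.61%, lists this small can hold no such gene, so these counts do not set the lists apart. Hes6, a HES family gene that counters Notch effectors, was lowest in tumor 4 at 7.28 and had a median of 13.4, with its highest level in tumor 2.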

How the data were processed

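Total RNA of bulk lung tumors was made into strand-specific libraries without a stated poly(A) step, per the labels. The authors deposited 1 table of the whole series with FPKM values per gene. Cufflinks 2.2.1, STAR 2.5.1b and the build mm9 appear in the processing notes of the submitters, their roles not stated. The unit was inferred from the values and the Cufflinks note, since the table itself names none. Read numbers are unknown, so no counting interval was computed. The table had 24043 entries, of which 27 with dates in place of gene names were left out. No column belonged to another series (0 such columns).

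Each column was divided by its median over 13123 genes. Spread was the SD of log2(relative level + 0.1) over 7 tumors for genes with a mean of at least 1 FPKM. Small differences in low genes are damped by the added 0.1. Chromosome and gene order came from the RefSeq table of GRCm38.p6, which matched 98.9% of the entries and gave names, order and the printed sequences only. Windows of 21 neighbouring genes were summarised by their median. No 2 libraries were identical (0 pairs). Scripts used Python 3.11.15, pandas 2.3.3, numpy 2.4.6, Biopython 1.88 and matplotlib 3.10.9, and were tested on simulated data.

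The tumors, the 32 gene lists and the markers were chosen with earlier results of these data known. Named genes were the 30 most abundant, the 30 most variable, up to 4 members of each list, a set of lineage, MYC family and edited genes, the neighbours of Mycl, and up to 5 genes highest in each tumor. The chromosome and window summaries, the neighbours of Nfib, the gene copies and further list members, such as Nnat, Crabp1, Bex1, Iapp, Th, Nppb, Clstn1 and Psip1, were added after values were seen. A gene named by this rule is not reported here.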

Additional observations from a re-analysis of the deposited data

Results flagged for a closer look

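Of 90 genes examined, 24 had a tumor far from the other 6, meaning that the gap to the nearest tumor divided by the whole range on the log2 scale was above the 95% critical value of Dixon for 7 samples. Chance alone gives such a gap in about 1 in 20 groups, but the 90 genes are those named in the text, many of them chosen because 1 tumor was extreme, so the 24 cannot be read against that rate. The levels were read on log2(relative level + 0.1), and no cause was tested.

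Tumor 5 stood apart for 6 genes, each time as the highest. The gap was 1 of the range for Cfd, 0.990 for Car3, 0.954 for Reg3g, 0.896 for Adipoq, 0.797 for H2-Ab1 and 0.645 for Ccnd1. Tumor 3 stood apart for 6 genes. It was highest for Fos (gap 0.818), Jun (gap 0.751) and Clstn1 (gap 0.750), and lowest for Rps27 (gap 0.805), Uchl1 (gap 0.627) and Bex1 (gap 0.603).

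Tumor 4 stood apart for 3 genes, highest for Th (gap 0.725) and Slc6a4 (gap 0.647) and lowest for Nnat (gap 0.660). Tumor 7 was highest for Nfib (gap 0.708) and for its neighbour Psip1 (gap 0.673). Tumor 8 was highest for Hoxb9 (gap 0.602) and Iapp (gap 0.601). Tumor 2 stood apart for 4 entries, highest for Ppia (gap 0.585) and lowest for Myc (gap 0.669), Rps27rt (gap 0.662) and BC002163 (gap 0.756). Rps27, Rps27rt and BC002163 have near-identical copies. Tumor 6 was lowest for Mir6973b (gap 0.777), a short entry listed there at 0.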

How the results depend on the processing

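No paired analysis was possible because 1 group of tumors was described and no groups were compared. The 912 variable genes became 1974 with a pseudocount of 0.01, 165 with a pseudocount of 1 and 571 with the median absolute deviation in place of the SD. Leaving out 1 tumor at a time gave 601 (without tumor 5, genes filtered anew) to 1086 (without tumor 6). The median spread of 0.38 became 0.43 and 0.20 with these pseudocounts, 0.33 with no filter on low values, 0.45 with tumor 1 included and 0.31 with the median absolute deviation, and leaving out 1 tumor gave 0.35 to 0.40.

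The median of X-linked genes in tumor 4, 0.87, became 0.50 with a pseudocount of 1 and 0.51 with no filter. The window around Nfib in tumor 7, at 1.11, became 0.47 with a pseudocount of 1, and all of these kept their sign. The top 50 entries, their share of the summed FPKM, the share of variable genes highest in tumor 5, the chromosome 12 medians and the windows around Mycl and Kif1b stayed within the limits set, under each alternative run for them. These limits were a factor of 1.5 for counts, for the share of variable genes and for spreads of single genes. For the median spread the limit was the SD of its values with 1 tumor left out. For other values it was 1 SD between tumors. Of 1456 spreads of single genes under alternatives, 147 moved further, and of 910 median levels 1 did. For a variable gene the limit on its median level is wide (Calca, SD 308 at a median of 143), so the count for median levels is a weak check. Choices of chromosome reference, window size and protein-coding genes alone were added after seeing the data. Depth is unknown, which limits statements on low genes.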
